A study of Sus scrofa with 12 samples.

Results

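Aminoacyl-tRNA synthetases were followed in the mRNA of fetal pig longissimus muscle, the long back muscle. The members are all gene identifiers of the count table whose pig symbol is 1 letter followed by ARS and an optional 1 or 2, together with EPRS1 and FARSA, which gave 30 of 19158 identifiers. Of these, 17 encode cytosolic enzymes and 13, with symbols ending in 2, encode mitochondrial enzymes. QARS1, VARS1, YARS2, CARS2, MARS2, FARS2 and FARSB were not analysed here.

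Each synthetase joins 1 amino acid to the tRNAs that read its codons, and so supplies every ribosome with charged tRNA. Proteins made in the cytosol and those made inside mitochondria from the mitochondrial genome need separate sets of charged tRNA, and in mammals most amino acids have a separate nuclear gene for each set. In mammals KARS1 (lysine) and GARS1 (glycine) make both forms from 1 gene, EPRS1 joins the glutamate and proline activities in a single protein, and several cytosolic enzymes sit in the multisynthetase complex on scaffold proteins. Skeletal muscle is a tissue that builds large amounts of contractile protein and is rich in mitochondria.

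Polyadenylated RNA was sequenced from fetuses of Large White sows fed a calorie-restricted diet (RE) or a normal diet (NE) through gestation, with fetuses taken on day 35, 55 or 90 of gestation (dg), which gave the libraries RE35, NE35, RE55, NE55, RE90 and NE90. All sows were in their second parity and were mated with the same boar. The paper reports the diets as alike in other nutrients, but lists less soybean oil, added fiber and slightly more crude protein in the RE feed. For sequencing 1 fetus of each of 4 sows per group was chosen, its weight close to the mean, and whether their RNA was pooled is not stated. Each diet and stage has 1 library, so ratios between single libraries carry neither a replicate check nor a p-value.

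The 6 libraries held 11091317 to 12985505 counts. Skeletal muscle was checked with 14 measured marker genes, and all 14 were above 1 CPM (counts scaled to a common library size) in every library, with a summed level of 59185 CPM in RE35, 32075 in NE35, 120862 in RE55, 138115 in NE55, 162188 in RE90 and 196649 in NE90. NE35 stood apart in kidney markers: 13 of 18 were above 1 CPM there, against 1 or 2 in the other libraries, and their summed level was 720 CPM against 5.85 to 14.1, with CDH16, LHX1 or PAX2 at 0 in 4 of those 5 libraries. Liver markers summed to 185 CPM in NE35 and 16.8 to 42.1 CPM elsewhere, with AFP, TTR and AHSG at 0 in RE55 and NE90 and at least 1 of these at 0 in the other libraries except NE35. Of 8 nerve markers 4 to 6 were above 1 CPM in each library, and they summed to 334 and 433 CPM in RE35 and NE35 and to 27.6 to 83.4 CPM later, and 13 cartilage and bone markers, 7 to 12 of them above 1 CPM, ran from 136 CPM in NE90 to 1987 CPM in RE35. The part of these other tissues in the synthetase values was not tested, and in such bulk tissue fewer cells of a type and less RNA per cell cannot be told apart.

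Levels of different genes were compared per length, as the deposited RPKM, a read density that divides by the length of a gene's exons and by the mapped reads of the library. KARS1, on chromosome 6 of Sscrofa10.2, led the cytosolic enzymes with 334 RPKM in RE35, 324 in NE35, 359.6 in RE55, 258 in NE55, 299.5 in RE90 and 396 in NE90. It took 27.7% to 38.7% of all cytosolic synthetase counts in a library. NARS1, the asparagine enzyme, came next with 88.6 RPKM in RE35, 91.7 in NE35, 54.5 in RE55, 81.0 in NE55, 78.3 in RE90 and 66.8 in NE90. KARS1 was above NARS1 and every other member in all 6 libraries.

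EPRS1, on chromosome 10, had 82.6 RPKM in RE35, 74.0 in NE35, 57.0 in RE55, 58.1 in NE55, 58.3 in RE90 and 46.8 in NE90. Its range overlapped that of NARS1, so the order of the 2 genes did not hold in every library. WARS1, GARS1, SARS1 and AARS1, for tryptophan, glycine, serine and alanine, followed with means of 53.3, 51.3, 48.2 and 43.0 RPKM, and each of their standard deviations over the 6 libraries (10.1 to 22.3 RPKM) was larger than the step to its neighbour. HARS1, TARS1, CARS1, RARS1, LARS1 and FARSA lay between 33.9 and 8.08 RPKM in the mean.

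The 3 lowest cytosolic members were IARS1, MARS1 and YARS1, for isoleucine, methionine and tyrosine. IARS1 had 6.93 RPKM in RE35, 8.76 in NE35, 8.06 in RE55, 5.80 in NE55, 7.24 in RE90 and 5.61 in NE90. MARS1 charges both the initiator and the elongator methionine tRNA and had 5.60 RPKM in RE35, 7.23 in NE35, 6.10 in RE55, 2.53 in NE55, 4.61 in RE90 and 4.48 in NE90. YARS1 had 3.16 RPKM in RE35, 5.19 in NE35, 1.70 in RE55, 1.80 in NE55, 3.22 in RE90 and 2.07 in NE90. Within each of the 6 libraries YARS1 lay below MARS1 and MARS1 below IARS1, although the ranges of neighbours overlapped across libraries.

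Among mitochondrial enzymes RARS2 was highest and steadiest. This arginine enzyme, on chromosome 1, had 37.4 RPKM in RE35, 35.2 in NE35, 32.6 in RE55, 37.7 in NE55, 28.1 in RE90 and 33.5 in NE90, a highest value 1.34 times the lowest. TARS2, for threonine, had 22.4 RPKM in RE35, 29.2 in NE35, 19.4 in RE55, 13.6 in NE55, 18.5 in RE90 and 16.3 in NE90. IARS2, for isoleucine, averaged 10.5 ± 2.2 RPKM and HARS2, for histidine, 10.1 ± 2.28 RPKM (SD over 6 libraries of differing diet and stage), which do not differ beyond their spread.

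The 2 lowest mitochondrial members were SARS2 and VARS2, for serine and valine. SARS2 had 2.89 RPKM in RE35, 2.51 in NE35, 1.67 in RE55, 1.32 in NE55, 1.59 in RE90 and 0.47 in NE90. It was lowest in NE90, on 10 counts only. VARS2 had 2.06 RPKM in RE35, 1.97 in NE35, 2.20 in RE55, 1.08 in NE55, 1.54 in RE90 and 1.07 in NE90, so that it was higher in RE than in NE at each stage.

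**Figure D1:**
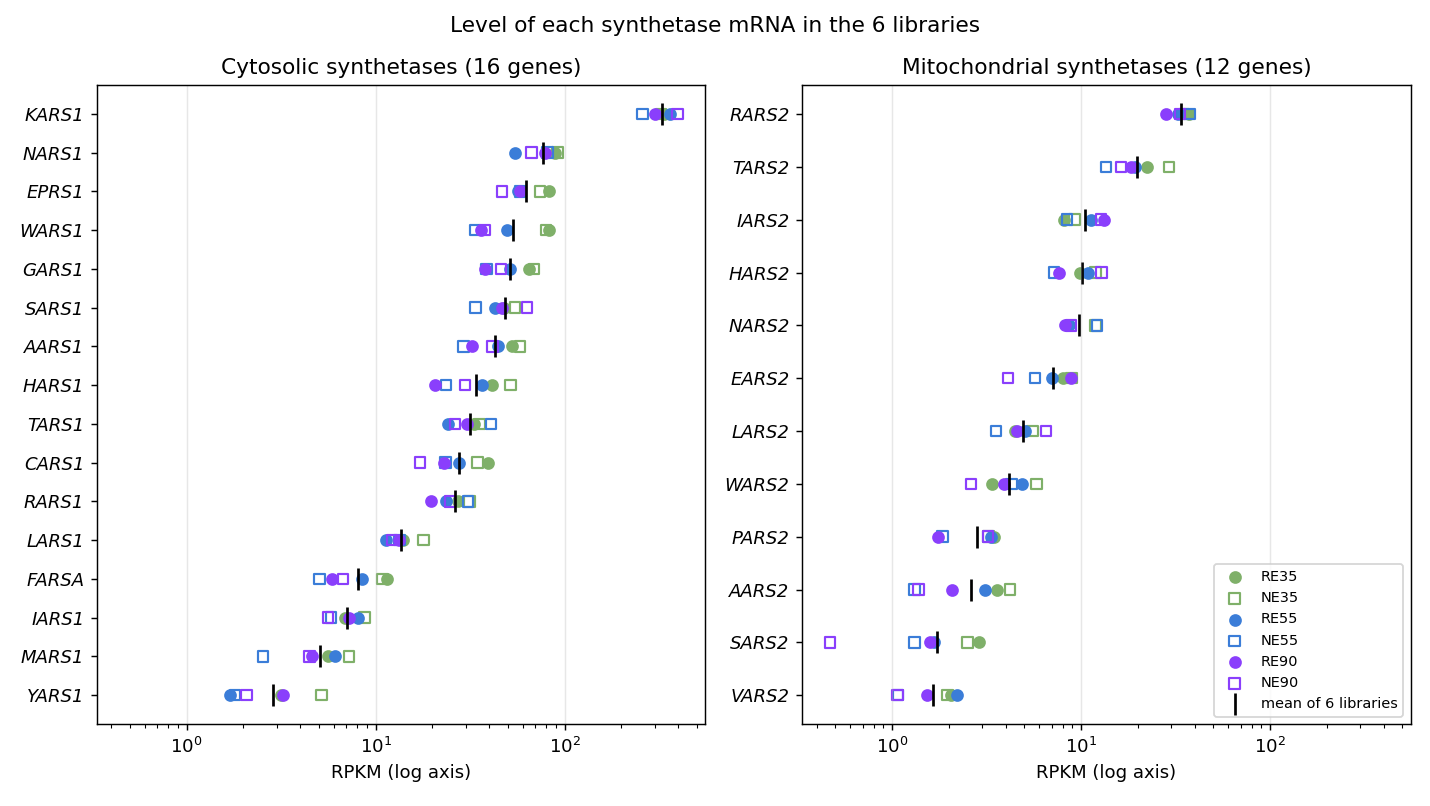
RPKM on a log axis for 16 cytosolic (left) and 12 mitochondrial (right) synthetases, 1 symbol per library, filled circles for RE and open squares for NE, coloured by stage, with a bar at the mean. KARS1 lies apart at 258 to 396 RPKM, and the mitochondrial genes run from RARS2 at 28.1 to 37.7 RPKM down to SARS2 and VARS2.

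Summed over the members, cytosolic synthetases reached 978 RPKM in RE35, 990 in NE35, 851 in RE55, 748 in NE55, 774 in RE90 and 893 in NE90. Mitochondrial synthetases summed to 117 RPKM in RE35, 134 in NE35, 112 in RE55, 100.3 in NE55, 102 in RE90 and 105 in NE90. The cytosolic sum was 7.41 to 8.52 times the mitochondrial sum across the 6 libraries, with no order by diet that held at all stages. These sums cover 17 cytosolic and 13 mitochondrial genes, which are not matched sets, as some enzymes were not analysed. KARS1 and GARS1 make both forms but count as cytosolic only. KARS1 alone held 258 RPKM (NE55) to 396 RPKM (NE90) of the cytosolic sum, so the ratio depends on where it is placed. The ratio without KARS1 is not given here.

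For 11 pairs of a cytosolic and a mitochondrial enzyme of the same amino acid, the ratio of their RPKM differed widely. The cytosolic gene was the higher one in all 6 libraries for 9 of the pairs, led by SARS1 over SARS2 with a ratio of mean RPKM of 27.7. In the arginine and isoleucine pairs it was the other way round in all 6 libraries. RARS1 had 0.700 to 0.893 of the RPKM of RARS2, and IARS1 had 0.440 to 0.945 of that of IARS2. Ratios of this kind depend on the exon models behind RPKM, whose lengths are not given in the files. HARS1 and HARS2, the histidine pair, are paralogues, and how many of their reads matched both and were discarded is not known, so their split is uncertain.

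In both diets this ratio was higher at each later stage for the serine pair, and lower at each for the histidine, arginine and isoleucine pairs. For the arginine pair it was almost unchanged from RE35 to RE55, with 0.729, 0.723 and 0.700 in RE35, RE55 and RE90. In NE35, NE55 and NE90 the arginine ratio was 0.893, 0.821 and 0.739. SARS1 over SARS2 was 16.6 in RE35, 25.7 in RE55 and 29.4 in RE90, and 21.8 in NE35, 25.6 in NE55 and 135 in NE90, the last on the 10 counts of SARS2. IARS1 over IARS2 ran the other way, with 0.851, 0.714 and 0.548 in RE35, RE55 and RE90, and 0.945, 0.685 and 0.440 in NE35, NE55 and NE90. These ratios were picked after their values were seen and have no test.

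**Figure D2:**
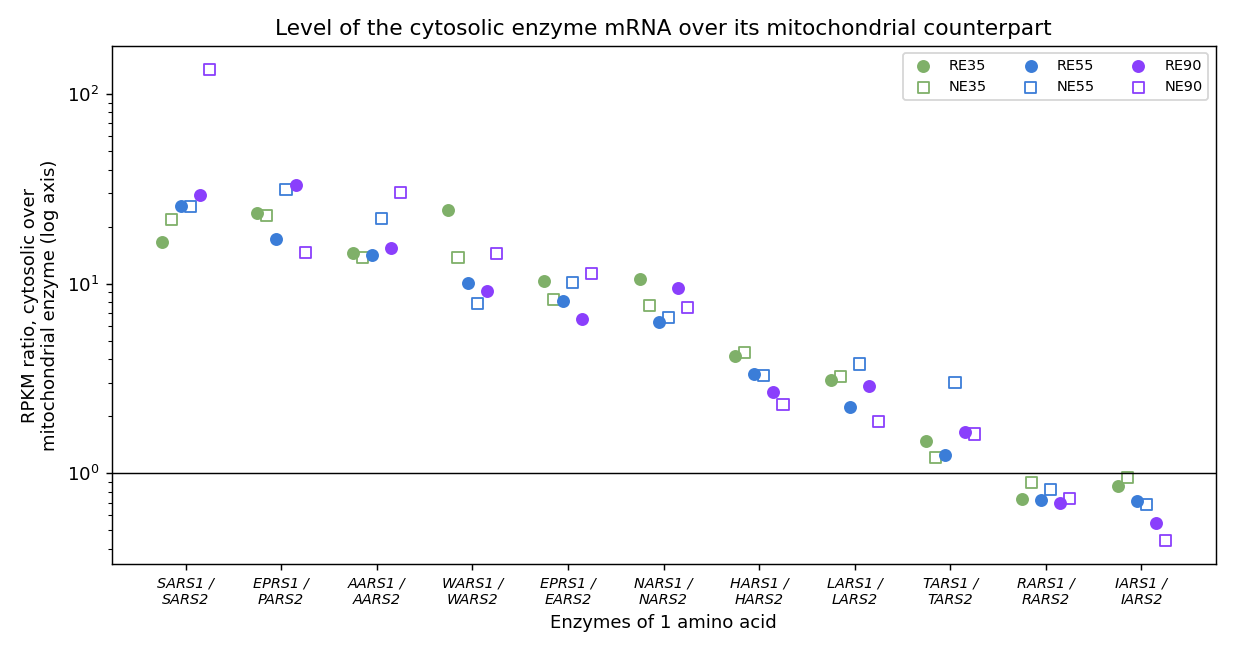
RPKM of the cytosolic enzyme over that of the mitochondrial enzyme of the same amino acid, on a log axis, 1 symbol per library with RE left of NE at each stage. The line at 1 marks equal levels, and only the arginine pair (0.700 to 0.893) and the isoleucine pair (0.440 to 0.945) lie below it in all 6 libraries.

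No synthetase passed the test of diet over the 3 stages. In edgeR's quasi-likelihood test, with diet and stage as factors over all 6 libraries and Benjamini-Hochberg adjustment over 12872 genes, 0 of 30 members were called and the lowest adjusted p among them was 0.999. No member reached an unadjusted p of 0.05, and by DESeq2 none was called. Over all genes the edgeR test called 0.0% in either direction, with 301 genes (2.34%) below an unadjusted p of 0.05, while DESeq2 called 1 gene higher and 2 lower. The median log2 fold change of RE over NE was -0.07 for cytosolic members, 0.01 for mitochondrial members and -0.02 for all genes tested. With 2 residual degrees of freedom, the same test on simulated counts found 93 of 100 genes made to differ 4-fold by diet and 8 of 100 made to differ 2-fold, so that differences of 2-fold or less would mostly be missed.

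Every RE library lay above every NE library for VARS2 alone, and below for LARS1 and RARS1, the cytosolic leucine and arginine enzymes, and for NARS2, the mitochondrial asparagine enzyme. NARS2 had 14.4 CPM in RE35, 18.7 in NE35, 16.7 in RE55, 25.6 in NE55, 16.7 in RE90 and 21.4 in NE90. VARS2 had 17.4 CPM in RE35, 15.2 in NE35, 21.1 in RE55, 11.3 in NE55, 15.5 in RE90 and 12.8 in NE90. All genes showed such separation in 3.47% (above) and 2.18% (below) of cases, so 1 and 3 of 30 members are few genes on which to read a pattern.

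The next comparisons set the diets side by side at each stage, on CPM scaled by the trimmed mean of M-values (TMM), with a prior count of 2 in the log2 ratios. The 95% intervals given with log2 ratios are exact binomial intervals that cover counting error only. All 30 members had at least 1 CPM in 1 library of every pair. The lowest level was 1.03 CPM, for SARS2 in NE90.

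At 35 dg the synthetases were close between diets. None of 30 was more than 2-fold higher in RE35, against 3.71% of all 13085 genes compared, and none was more than 2-fold lower, against 9.22%. The median log2 ratio of RE35 over NE35 was 0.02 for cytosolic and -0.09 for mitochondrial members, with 0.01 for all genes. On deposited RPKM the cytosolic median was -0.10, with -0.11 for all genes. Past 1.5-fold stood 0 members higher and 1 lower, against 11.5% and 16.2% of all genes. WARS2, the mitochondrial tryptophan enzyme, marked the low end with 9.58 CPM in RE35 and 15.2 CPM in NE35 (log2 ratio -0.65, interval -0.99 to -0.34). The kidney and liver markers found in NE35 lie on 1 side of this comparison.

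At 55 dg members spread in both directions. MARS1 and AARS2, the mitochondrial alanine enzyme, were more than 2-fold higher in RE55, which makes 2 of 30 against 9.05% of all 12536 genes, and none was more than 2-fold lower, against 11.7%. Past 1.5-fold 5 were higher and 4 lower, against 22.1% and 23.8%. MARS1 had 8.49 CPM in RE55 and 3.85 CPM in NE55, on 110 and 41 counts, and its level was 6.89 in RE35, 8.15 in NE35, 6.74 in RE90 and 7.80 in NE90 (log2 ratio at 55 dg 1.11, interval 0.61 to 1.70). AARS2 had 13.9 CPM in RE35, 14.9 in NE35, 13.5 in RE55, 6.29 in NE55, 9.49 in RE90 and 7.49 in NE90 (log2 ratio at 55 dg 1.08, interval 0.69 to 1.53). For both genes NE55 was the lowest of the 6 libraries.

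In the other direction at 55 dg stood TARS1 and NARS1, the cytosolic threonine and asparagine enzymes. TARS1 had 83.0 CPM in RE35, 81.8 in NE35, 68.8 in RE55, 127 in NE55, 91.1 in RE90 and 93.5 in NE90, a log2 ratio at 55 dg of -0.88 (interval -1.01 to -0.76). NARS1 had 114 CPM in RE55 and 185 CPM in NE55 (log2 ratio -0.70, interval -0.80 to -0.60). TARS2 went the other way from TARS1, with 60.0 CPM in RE55 and 45.8 CPM in NE55 (log2 ratio 0.39, interval 0.22 to 0.56). For TARS1 and NARS1, NE55 was the highest library and RE55 the lowest.

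The median log2 ratio of RE55 over NE55 was 0.22 for cytosolic and 0.28 for mitochondrial members, with -0.00 for all genes. Of 30 members 20 were higher in RE55, against 6265 of all 12536 genes. NE55 was the lowest library for 10 of 30 members and enters 3 of the 7 pairs of libraries, so values against RE55, NE35 and NE90 share it. Summed markers differed between RE55 and NE55, with 12453 and 21385 CPM for 12 fibroblast genes and 222 and 600 CPM for cartilage and bone. Muscle markers had 120862 and 138115 CPM, and 8 blood and immune genes 165 and 148 CPM. All 12 fibroblast genes were above 1 CPM in both, and IBSP of bone was at 0 in RE55. The part of these in the 55 dg ratios was not tested.

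At 90 dg 13 of 17 cytosolic members were lower in RE90 on the TMM scale and 9 of 17 on deposited RPKM. Their median log2 ratio of RE90 over NE90 was -0.32 on the TMM scale, against 0.07 for all 12426 genes, of which 53.6% were positive. On deposited RPKM, where the median of all genes shifts by 0.24 and 66.9% of them were positive, the cytosolic median was -0.07. It lay 0.38 below that of all genes on that scale and 0.39 below it on the TMM scale. KARS1, already given per length, had 721 CPM in RE90 and 1134 CPM in NE90 (log2 ratio -0.65, interval -0.70 to -0.61). SARS1, the serine enzyme, had 118 CPM in RE35, 124 in NE35, 119 in RE55, 103 in NE55, 137 in RE90 and 221 in NE90 (log2 ratio at 90 dg -0.69, interval -0.79 to -0.60). NE90 was thus the highest library for KARS1 and SARS1, as it was for 11 of the 30 members, and it also had the lowest TMM factor of the 6. Between RE90 and NE90 the summed markers also differed, with 139 and 360.3 CPM for 8 blood and immune genes, 532 and 136 CPM for cartilage and bone, 13763 and 9731 CPM for 12 fibroblast genes, and 162188 and 196649 CPM for muscle. Of the blood genes 6 in RE90 and 5 in NE90 were above 1 CPM, all 12 fibroblast genes were in both, and MATN1 of cartilage was at 0 in NE90. The part of these in the 90 dg ratios was not tested.

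Mitochondrial members at 90 dg had a median of -0.07, beside 0.07 for all genes, and held the extremes of both directions. On deposited RPKM their median was 0.18, beside 0.31 for all genes. On the TMM scale SARS2 was more than 2-fold higher in RE90, 1 of 30 against 10.1% of all genes, and PARS2 more than 2-fold lower, 1 of 30 against 7.42%. On deposited RPKM 2 were higher, with EARS2 added, and 0 lower, and with DESeq2's size factors 1 was higher and 2 lower, with HARS2 added. Of all genes past 2-fold, 57.6% were higher on the TMM scale, 78.9% on deposited RPKM and 54.0% with DESeq2's size factors. Past 1.5-fold 2 of the 30 were higher and 7 lower, against 23.4% and 18.4%. SARS2 had 4.49 CPM in RE35, 3.58 in NE35, 2.93 in RE55, 2.53 in NE55, 2.93 in RE90 and 1.03 in NE90, the last pair on 33 and 10 counts (log2 ratio 1.37, interval 0.46 to 2.70). PARS2, the mitochondrial proline enzyme, had 4.87 CPM in RE35, 4.15 in NE35, 5.25 in RE55, 3.19 in NE55, 2.93 in RE90 and 6.36 in NE90, the last pair on 33 and 62 counts (log2 ratio -1.08, interval -1.78 to -0.49, and -0.84 on deposited RPKM). Both rest on few reads, and both intervals reach well below a 2-fold difference.

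HARS2 and LARS2, for histidine and leucine, shared the direction of PARS2. HARS2 had 23.0 CPM in RE35, 25.4 in NE35, 28.6 in RE55, 20.6 in NE55, 21.2 in RE90 and 42.2 in NE90 (log2 ratio at 90 dg -0.99, interval -1.23 to -0.76). LARS2 had 14.7 CPM in RE35, 16.7 in NE35, 18.8 in RE55, 14.4 in NE55, 18.0 in RE90 and 30.3 in NE90 (log2 ratio at 90 dg -0.74, interval -1.01 to -0.49). In both genes NE90 stood above 5 libraries that lay close together. EARS2, the mitochondrial glutamate enzyme, went the other way with 37.0 CPM in RE90 and 20.3 CPM in NE90 (log2 ratio 0.86, interval 0.62 to 1.12).

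Enzymes of 1 amino acid differed by more than 1 on the log2 scale in their RE over NE ratio in 3 cases. These were SARS1 against SARS2 at 90 dg (a difference of -2.07), EPRS1 against PARS2 at 90 dg (1.14) and TARS1 against TARS2 at 55 dg (-1.27). EPRS1 itself had 377 CPM in RE35, 309.5 in NE35, 294 in RE55, 328 in NE55, 316 in RE90 and 302 in NE90, a log2 ratio at 90 dg of 0.07. EPRS1 varied least of all members on this scale, its highest library at 1.28 times its lowest.

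**Figure D3:**
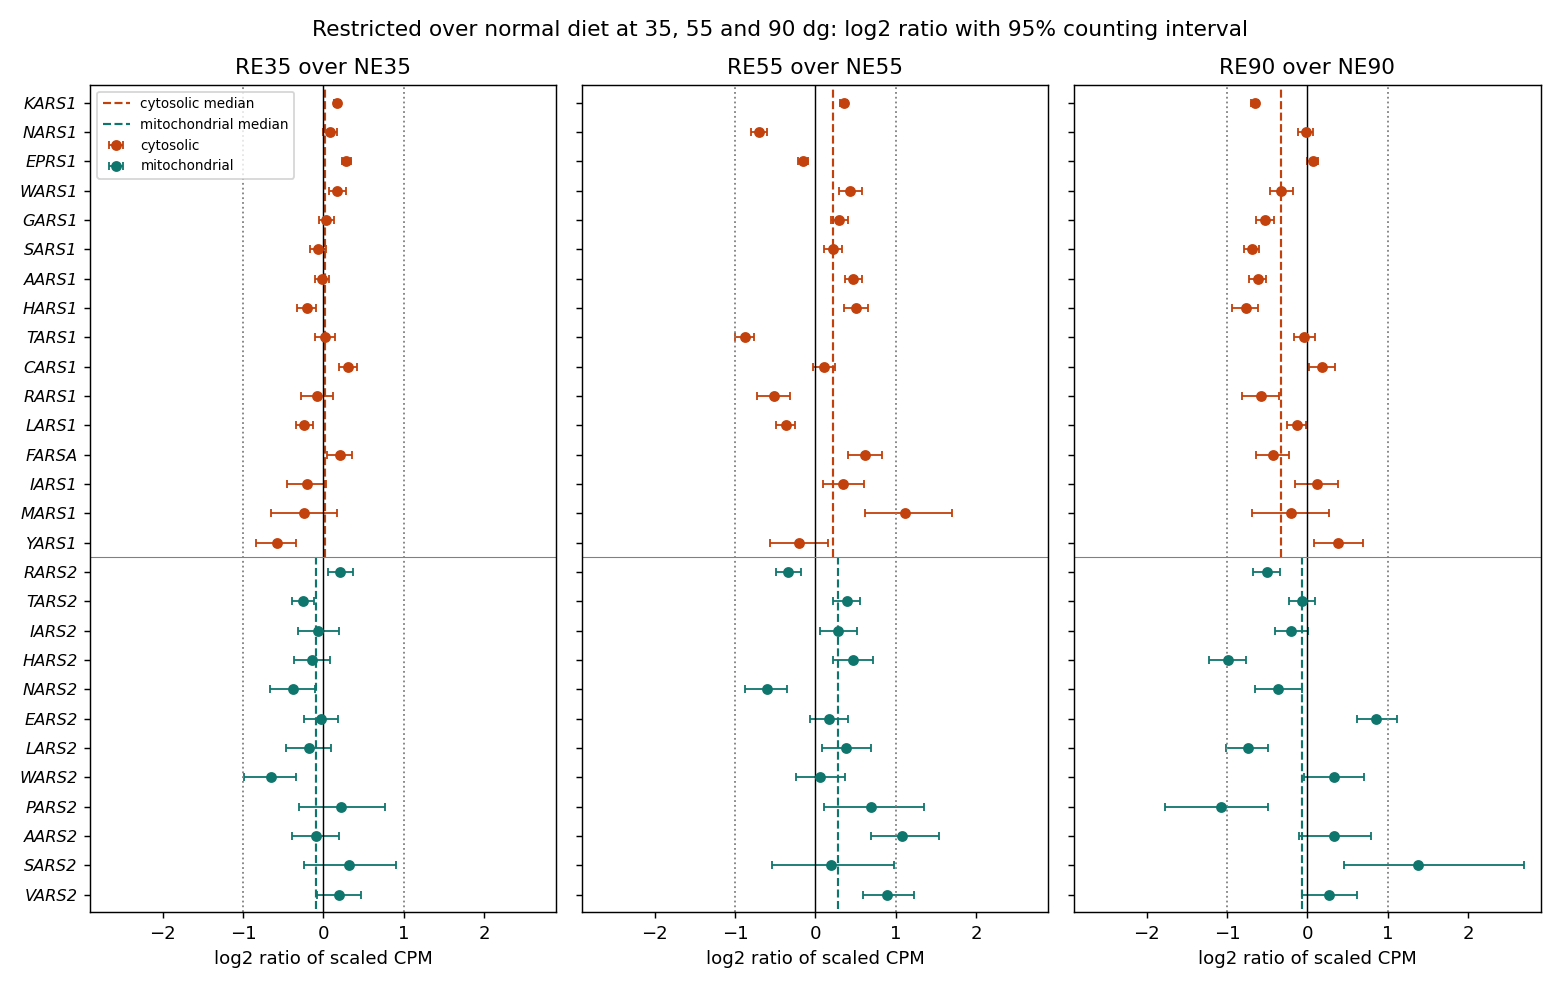
Log2 ratio of TMM-scaled CPM, RE over NE, for 28 synthetases at 35, 55 and 90 dg, with 95% counting intervals, dotted lines at 2-fold and dashed lines at the median of all members of each compartment. At 90 dg most cytosolic points lie left of 0 on this scale, with the median at -0.32 (-0.07 on deposited RPKM, where all genes had 0.31). At 35 dg both medians lie close to 0.

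Between stages, tested over both diets, again no synthetase was called by edgeR's quasi-likelihood test. On simulated counts this test found 62 of 100 genes made to differ 4-fold at 55 dg from 35 dg, and 5 of 100 made to differ 2-fold. It is thus weaker for this stage step than for diet, and differences of 2-fold would mostly be missed. For 55 over 35 dg 0 of 30 members passed, against 1.15% of all genes higher and 0.808% lower, and 1 member had an unadjusted p under 0.05, against 12.5% of all genes. Both 55 dg libraries lay above both 35 dg libraries for 2 members, IARS2 among them, and below them for 11, against 22.0% and 22.8% of all genes. For 90 over 55 dg 0 of 30 passed, against 0.0% of all genes in either direction, and none had an unadjusted p under 0.05, against 5.25%. Here 4 members lay wholly above and 3 wholly below, against 14.4% and 15.8%. For 90 over 35 dg 0 of 30 passed, against 3.87% higher and 3.38% lower, and 2 members had an unadjusted p under 0.05, against 21.5%. DESeq2 called no member in any of the 3.

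IARS2 was 1 of those 2 members. This gene, the mitochondrial isoleucine enzyme on chromosome 10, had 18.6 CPM in RE35, 19.5 in NE35, 29.2 in RE55, 23.9 in NE55, 35.9 in RE90 and 41.2 in NE90, so that the stages did not overlap. Its log2 fold change for 90 over 35 dg was 1.01 ± 0.37 (standard error), with an adjusted p of 0.129 in edgeR.

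With 1 library left out, the log2 fold change of IARS2 for 90 over 35 dg ran from 0.86 (without NE90) to 1.17 (without RE90). Each of these fits leaves a stage with 1 library, so no call of IARS2 is taken from them. Both 90 dg libraries lay above both 35 dg libraries for 7 members, among them KARS1, NARS1, SARS1, TARS1, IARS2 and LARS2, and below them for 6, among them CARS1, FARSA, WARS1, AARS2 and SARS2. That is 7 and 6 of 30 members, against 26.1% and 30.4% of all genes, with summed muscle markers higher and summed nerve markers lower in the 90 dg libraries.

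YARS1, on chromosome 6, was the member with the lowest p for 55 over 35 dg. It had 16.8 CPM in RE35, 25.3 in NE35, 10.3 in RE55, 11.8 in NE55, 20.4 in RE90 and 15.6 in NE90, with both 55 dg libraries below all others. The log2 fold change for 55 over 35 dg was -0.93 ± 0.42, with an adjusted p of 0.388 in edgeR, and without NE35 it was -0.56.

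**Figure D4:**
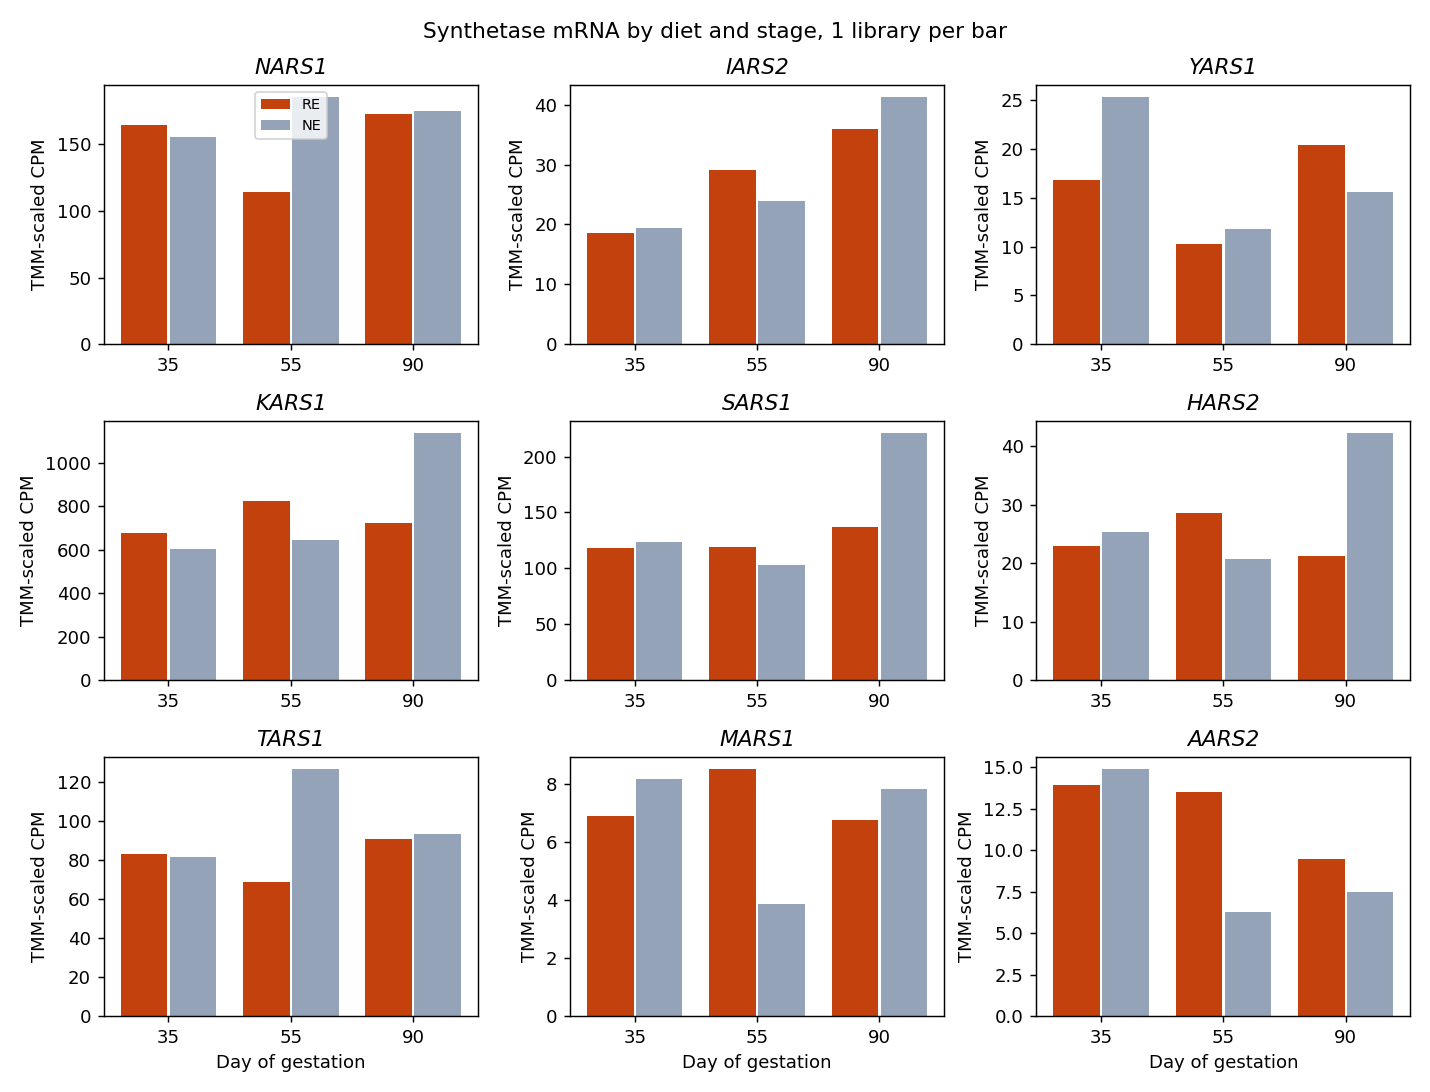
TMM-scaled CPM of 9 synthetases by day of gestation, 1 library per bar, RE left of NE. IARS2 runs from 18.6 and 19.5 CPM at 35 dg to 35.9 and 41.2 CPM at 90 dg, and NE90 stands above the other bars for KARS1, SARS1 and HARS2.

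Within the restricted diet no member passed 2-fold between neighbouring stages. For RE55 over RE35 none of 30 was higher or lower by more than 2-fold, against 7.38% and 8.54% of all 12674 genes, and 2 were higher and 2 lower past 1.5-fold, against 15.6% and 16.7%. WARS2 was the highest with 15.7 CPM in RE55 and 9.58 CPM in RE35 (log2 ratio 0.71, interval 0.39 to 1.05), and YARS1 the lowest (-0.71, interval -1.03 to -0.40). The medians were -0.12 for cytosolic and 0.11 for mitochondrial members, beside -0.00 for all genes. On deposited RPKM the mitochondrial median was -0.07, beside -0.17 for all genes. For RE90 over RE55 again none of 30 passed, against 9.94% and 8.79% of all 12578 genes, and 2 were higher and 2 lower past 1.5-fold, against 20.9% and 20.4%. Cytosolic members had a median of -0.17 and mitochondrial members of -0.14, beside -0.01 for all genes, and YARS1 (0.98) and PARS2 (-0.81) were the extremes.

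Within the normal diet some members passed. For NE55 over NE35 1 of 30 was more than 2-fold higher, against 15.0% of all 13225 genes. AARS2 (-1.22, interval -1.66 to -0.84), YARS1 (-1.09, interval -1.40 to -0.80) and MARS1 (-1.05, interval -1.64 to -0.56) were more than 2-fold lower, 3 of 30 against 17.7%. Past 1.5-fold 2 were higher and 7 lower, against 25.9% and 29.1%. The cytosolic median was -0.16 and the mitochondrial median -0.30, beside -0.07 for all genes. On deposited RPKM, where the median of all genes shifts by -0.42, no member was more than 2-fold higher and 7 were lower. Of all genes past 2-fold on that scale 21.5% were higher, against 45.9% on the TMM scale. The kidney and liver markers found in NE35 lie on 1 side of this comparison too.

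For NE90 over NE55 SARS1 (1.10, interval 1.00 to 1.21), LARS2 (1.07, interval 0.79 to 1.37) and HARS2 (1.02, interval 0.79 to 1.27) were more than 2-fold higher, 3 of 30 against 9.22% of all 12445 genes. SARS2 (-1.18, interval -2.52 to -0.21, on 10 and 27 counts) was more than 2-fold lower, 1 of 30 against 12.7%. Past 1.5-fold 9 were higher and 2 lower, against 20.3% and 26.3%. The cytosolic median was 0.37, or 0.15 without GARS1 and KARS1, and the mitochondrial median 0.19, beside -0.07 for all genes. On deposited RPKM, whose median of all genes shifts by -0.18, the mitochondrial median was -0.01, no member was more than 2-fold higher, and SARS1 had a log2 ratio of 0.91. With DESeq2's size factors 5 members were more than 2-fold higher, MARS1 and PARS2 added, and with a prior count of 0.5 there were 4, MARS1 added. Of all genes past 2-fold, 26.8% were higher on deposited RPKM, 46.2% with DESeq2's size factors and 41.4% with that prior count. The shares of members past 2-fold in these pairs lie near the background or below it on the TMM scale, and nothing particular to synthetases is read from them.

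**Figure D5:**
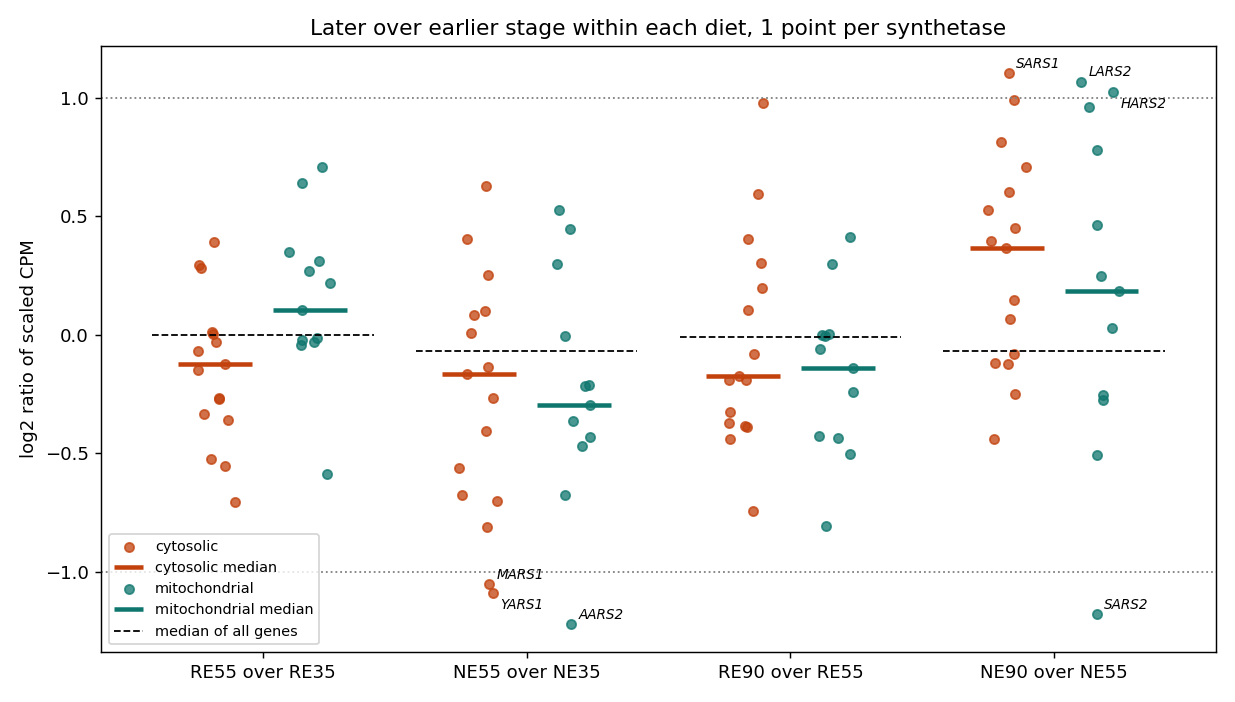
Log2 ratio of TMM-scaled CPM between neighbouring stages for 28 synthetases, 55 over 35 dg and then 90 over 55 dg, RE left of NE, with bars at the medians of all members of each compartment, a dashed line at the median of all genes and dotted lines at 2-fold. All points of the RE pairs lie within 2-fold, and members past it in the NE pairs are named.

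The 7 measured enzymes of the multisynthetase complex, among them KARS1, EPRS1, RARS1, LARS1, IARS1 and MARS1, had median log2 ratios of RE over NE of -0.08, -0.16 and -0.21 at 35, 55 and 90 dg. The 10 other cytosolic enzymes had 0.03, 0.26 and -0.38. On deposited RPKM the signs turned for the complex at 90 dg (0.04) and for the other enzymes at 35 dg (-0.10). The medians of all genes on that scale were 0.31 at 90 dg and -0.11 at 35 dg, against 0.07 and 0.01 on the TMM scale. None of the 7 and none of the 10 was called in any comparison. Class I and class II enzymes, which have unrelated catalytic folds, had medians of -0.14 and -0.44 at 90 dg (0.11 and -0.19 on deposited RPKM), on 13 and 16 genes with EPRS1 in neither class, and the difference between them was not tested.

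Of the complex's scaffold proteins AIMP1 and AIMP2 were measured, and edgeR called neither. For 90 over 35 dg 1 of them was below an unadjusted edgeR p of 0.05, against 21.5% of all genes. AIMP1 had 226 CPM in RE35, 213 in NE35, 297 in RE55, 469.8 in NE55, 376 in RE90 and 629 in NE90. The log2 ratio of AIMP1 was 1.14 for NE55 over NE35, and -0.74 for RE90 over NE90. AIMP2 stayed between 21.9 and 31.3 CPM.

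Shortage of amino acids leaves tRNA uncharged, which in mammals activates the kinase EIF2AK4 and raises ATF4, whose targets include several synthetases. Of 32 listed genes of this response 21 had a row and 18 were tested over all 6 libraries. None was called for diet. For 55 over 35 dg 1 was called higher and none lower, against 1.15% and 0.808% of all genes. For 90 over 35 dg 2 were called higher and 2 lower, against 3.87% and 3.38% of all genes. EIF4EBP1, a repressor of cap-dependent translation, rose, with 32.4 CPM in RE35, 42.4 in NE35, 127 in RE55, 125 in NE55, 191 in RE90 and 208 in NE90. Its log2 fold change was 1.76 ± 0.37 for 55 over 35 dg (edgeR adjusted p = 0.031) and 2.42 ± 0.37 for 90 over 35 dg (edgeR adjusted p = 0.00305). The call for 55 over 35 dg was lost without RE35 or without NE35 (adjusted p = 0.39 and 0.508).

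ATF3, a stress-induced transcription factor, rose for 90 over 35 dg (log2 fold change 2.05 ± 0.54, edgeR adjusted p = 0.0417). It had 12.1 CPM in RE35, 21.1 in NE35, 137 in RE55, 37.5 in NE55, 70.2 in RE90 and 71.5 in NE90, and the call was lost without RE35 or without NE90 (adjusted p = 0.313 and 0.103). GPT2, which interconverts alanine and pyruvate, fell for 90 over 35 dg (-2.87 ± 0.59, edgeR adjusted p = 0.0139). NE35 held 47.5 CPM of GPT2 against 16.4 CPM in RE35, and without NE35 the log2 fold change was -1.64 and the call was lost. NE35 is also the library with the kidney and liver markers, and their part in the GPT2 value was not tested. PHGDH, which opens serine synthesis, fell (-1.48 ± 0.41, edgeR adjusted p = 0.0485), a call lost without any 1 of the 35 or 90 dg libraries (adjusted p = 0.0595 to 0.733) and under DESeq2's size factors (0.0559). The called members of this list thus stood in both directions.

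ASNS, the asparagine synthetase and a classical ATF4 target, had 87.7 CPM in RE35, 55.2 in NE35, 142 in RE55, 162 in NE55, 56.1 in RE90 and 121 in NE90. Its log2 ratio of RE over NE was 0.67, -0.18 and -1.10 at 35, 55 and 90 dg. NARS1, which uses the same amino acid, had 0.08, -0.70 and -0.02 in these pairs. Of the 2 genes NARS1 was thus further below NE at 55 dg and ASNS at 90 dg.

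No member of the lists of cytosolic translation factors (18 tested), mitochondrial translation factors (11), tRNA maturation (23) or RNA polymerase III (12) was called by edgeR in any of the 4 comparisons. Per list and comparison 0 to 1 had an unadjusted p under 0.05, against 2.34% (diet) to 21.5% (90 over 35 dg) of all genes. At 90 dg the median log2 ratio of RE over NE was -0.43 for cytosolic translation factors, -0.11 for mitochondrial translation factors, -0.29 for tRNA maturation and -0.04 for RNA polymerase III, beside -0.32 for cytosolic synthetases and 0.07 for all genes. On deposited RPKM these medians were -0.18, 0.14, -0.04 and 0.21, beside -0.07 and 0.31. EEF2, the elongation factor that moves the ribosome, had 3319 CPM in RE90 and 6001 CPM in NE90 (log2 ratio -0.85).

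At 55 dg mitochondrial translation factors had a median of -0.71 for RE55 over NE55, opposite in sign to the 0.28 of mitochondrial synthetases. GUF1, a ribosome-binding GTPase, had 24.4 CPM in RE55 and 54.6 CPM in NE55 (log2 ratio -1.16). TUFM, the mitochondrial elongation factor that carries charged tRNA to the ribosome, had 149.9 CPM in RE55 and 72.9 CPM in NE55 (log2 ratio 1.04). With 1 library on each side, none of these differences was tested.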

How the data were processed

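The authors trimmed reads with the FASTX-Toolkit, aligned them to Sscrofa10.2 with TopHat2 and kept reads that matched the genome at a single place. The deposited tables hold raw counts for each gene, and the authors also deposited RPKM for the same genes. Whether counting used strand is not given in the sources used here, so overlapping and antisense genes cannot be told apart. Columns named SE were read as RE, since all 1198 gene rows of a supplementary table that lists RE had the same RPKM (within 0.006). Symbols were paired with 11010 of 19158 identifiers.

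Counts were tested with edgeR 4.0.16 (quasi-likelihood, TMM, at least 1 CPM in at least 2 libraries, adjusted p under 0.05) and DESeq2 1.42.0 in R 4.3.3, after a test on simulated data. Ratios between 2 libraries used a prior count of 2 and genes with at least 1 CPM in 1 of the 2 (Python 3.11.15, numpy 2.4.6, pandas 2.3.3, scipy 1.17.1). Medians of lists are described beside those of all genes. Alternatives covered size factors, RPKM with a pseudocount of 0.1, prior count, filter, fold threshold, model terms and left-out libraries, where a stage left with 1 library was assumed to vary like the others.

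Values in all 6 libraries are given for members past 2-fold in a pair with at least 5 CPM, the 3 highest and 3 lowest of each compartment, and enzymes of 1 amino acid that differed by more than 1 (log2) in their diet ratio. Of other lists up to 5 members per pair could be named. Members and lists were chosen with earlier results of these data known. The 6 small RNA libraries were not used. The values of 2 members are not reported here, while counts and medians include them.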

Additional observations from a re-analysis of the deposited data

Results flagged for a closer look

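PARS2, the mitochondrial proline enzyme, was the 1 synthetase whose ratio pointed in opposite directions in 2 conditions, past 1.5-fold each time and with counting intervals that leave out 0. Its log2 ratio of RE over NE was 0.69 at 55 dg and -1.08 at 90 dg. For 90 over 55 dg it was -0.81 in RE and 0.96 in NE. The 2 contrasts use the same 4 libraries, which hold 33 to 68 counts of PARS2 each, and the difference was not tested because each condition has 1 library.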

How the results depend on the processing

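Single animals could not be paired because each diet and stage has 1 library and the labels carry no replicate numbers. The diet test did set RE against NE within each stage, as stage was a factor in it. The count of synthetases called for 90 over 35 dg was 0 to 2 when 1 library was left out, and 0 under every other setting, and the counts for 55 over 35 dg, 90 over 55 dg and diet were 0 under every setting run. Each fit with a library left out has a stage with 1 library, and the share of all genes called in it is not given here. No call of a synthetase is therefore taken from the fits with a library left out. At a threshold of 1.5-fold in place of 2-fold the members past it numbered 1 (RE35 over NE35), 9 (RE55 over NE55), 9 (RE90 over NE90), 9 (NE55 over NE35), 4 (RE55 over RE35), 11 (NE90 over NE55) and 4 (RE90 over RE55). On deposited RPKM, which lacks TMM scaling, 7 members passed 2-fold for NE55 over NE35 and 2 for NE90 over NE55. The cytosolic and mitochondrial medians on that scale were -0.073 and 0.18 for RE90 over NE90, beside 0.31 for all genes. For NE55 over NE35 they were -0.59 and -0.72, beside -0.48 for all genes. Without GARS1 and KARS1 the cytosolic median for NE90 over NE55 was 0.15. The share of genes past 2-fold that were higher was 78.9% on RPKM and 57.6% on TMM for RE90 over NE90, 57.3% and 43.6% for RE55 over NE55, 21.5% and 45.9% for NE55 over NE35, 34.4% and 46.4% for RE55 over RE35, and 26.8% and 42.0% for NE90 over NE55. Of 840 single ratios recomputed, 744 changed by at most 1/2 the width of their counting interval and 96 by more. No ratio past 2-fold changed sign. The 840 include ratios without the filter, which could not change because every member passed it in all pairs. Order by level held for 27 of 30 members when log values were averaged. Counts of 10 to 70, as for SARS2 and PARS2, limit the ratios of the lowest members.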
